A study of Mus musculus with 8 samples.

Results

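The early growth response genes Egr1, Egr2 and Egr3 and the genes of their corepressors, Nab1 and Nab2, were followed in mouse 3T3-L1 cells. All array probes that the RefSeq transcript or gene name assigned to these 5 genes were taken, which gave 6 of the 55681 probes and 5 of 20668 named genes. Of the 5 genes, 4 entered the statistical fit, among 25797 genes and unnamed probes. The family was chosen by the measured KD minus control difference of Egr2 on these arrays (KD, supernatant of knockdown cells), known from earlier results, and its other genes by kinship with Egr2 and not by their values. The Egr2 differences between supernatants are therefore a description with no test, and those of its relatives, from the same contrasts, give no independent support.

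3T3-L1, a line of mouse preadipocytes, had spent 1 week in adipogenic medium. It then received supernatant, diluted 2-fold, from human HL-60 leukemia cells made macrophage-like over 5 days by 30 nM PMA, a phorbol ester. The labels give 10% serum for every sample. In the KD groups the HL-60 donors had a knockdown of the ubiquitin protease USP2, and in the control groups they carried a mock vector; the labels name no genetic change in the 3T3-L1 cells. The groups were KD and control supernatant at 6 h and KD and control supernatant at 3 h, each with 2 one-colour arrays that the submitters called biological replicates. Whether replicate wells received 1 common batch of supernatant is not stated, so a p-value covers no more than the spread between these arrays. The labels used here describe no group without HL-60 supernatant, so the levels have no untreated baseline.

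Egr proteins are zinc finger transcription factors of the immediate early class: growth factors, cytokines and phorbol esters switch their genes on within minutes to hours, largely through ERK signalling to serum response factor and its ternary complex partners, which bind CArG boxes. Nab1 and Nab2 bind the Egr proteins and mostly repress transcription at Egr sites, and Egr proteins can switch on Nab2, which forms a feedback loop. In 3T3-L1 cells Egr2, also called Krox20, is known as an early promoter of fat cell formation, while Egr1 has been described as opposing it.

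The RefSeq promoter table of build GRCm38.p6 held 5 start sites for Egr2 and 1 each for Nab1 and Nab2. The 250 bases before a start are shown for each, because sequences to which the regulators named above bind were searched in them. For Egr2 the start at the canonical CArG box was taken. Capitals mark motif matches.
Egr2, chr10:67537619-67537868, plus strand: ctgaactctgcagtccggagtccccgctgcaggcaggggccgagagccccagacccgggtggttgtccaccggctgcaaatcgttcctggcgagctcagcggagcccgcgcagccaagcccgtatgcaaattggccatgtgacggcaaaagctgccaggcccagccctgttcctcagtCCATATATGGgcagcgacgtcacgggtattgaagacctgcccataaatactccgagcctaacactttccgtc
Nab1, chr1:52500449-52500698, minus strand: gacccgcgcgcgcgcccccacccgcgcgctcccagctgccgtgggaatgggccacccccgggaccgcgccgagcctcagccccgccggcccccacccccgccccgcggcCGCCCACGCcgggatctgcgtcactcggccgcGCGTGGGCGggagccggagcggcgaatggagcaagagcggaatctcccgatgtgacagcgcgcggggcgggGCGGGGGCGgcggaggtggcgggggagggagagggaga
Nab2, chr10:127666704-127666953, minus strand: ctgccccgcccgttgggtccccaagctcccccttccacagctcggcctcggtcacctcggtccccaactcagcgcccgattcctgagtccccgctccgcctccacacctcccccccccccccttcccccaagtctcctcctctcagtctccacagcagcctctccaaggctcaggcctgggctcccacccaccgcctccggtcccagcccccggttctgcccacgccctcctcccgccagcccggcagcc
Both strands were searched for the CArG box, for the Egr binding sequences GCGTGGGCG and GCGGGGGCG and for the cyclic AMP response element TGACGTCA. A CArG box began 72 bases before the Egr2 start shown, and one stood in 4 of the 5 Egr2 windows, some of which overlap. The Nab1 window held GCGTGGGCG in 2 places, beginning 141 and 109 bases before the start and the first of them on the opposite strand, and GCGGGGGCG beginning 38 bases before it. The Nab2 window held no exact match to any of the 4 motifs, and near matches were not counted. Among 32851 mouse promoter windows of this length, 1.47% held a CArG box, 0.536% GCGTGGGCG, 2.57% GCGGGGGCG and 1.55% TGACGTCA. These matches describe the letters of the windows and are not measured binding.

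All 8 arrays lay on 1 slide with 1 scan time. KD arrays lay in slide columns 3 and 4 and control arrays in columns 1 and 2, while the 6 h arrays lay in row 2 and the 3 h arrays in row 1. Supernatant thus cannot be told apart from slide column, nor time from slide row. Replicates correlated at 0.993 (KD) and 0.988 (control) at 6 h and at 0.998 (KD) and 0.997 (control) at 3 h over all features. Of 11 adipocyte markers, 4 were above background on all 8 arrays, among them Pparg and Cebpa, and 6 on none, among them Adipoq, Cidec and Cfd; all 8 fibroblast markers were above background on all arrays. The leukocyte marker Ptprc and the macrophage marker Adgre1 were above background on no array. Another 4 of the 7 macrophage and leukocyte markers were above it on all 8 arrays. Among 5 endothelial markers, 3 were above background on all 8 arrays and 2 on none. Of 7 macrophage and leukocyte markers 4 were tested, and their summed signal, in multiples of the 75th percentile, was 37.6 and 40.3 (KD) and 42.5 and 37.1 (control) at 6 h, and 52.9 and 54.6 (KD) and 44.4 and 42.2 (control) at 3 h. Of all markers tested only Cd14, a lipopolysaccharide coreceptor, was called between supernatants, higher with KD by 0.47 for the average (adjusted p = 0.0166 by limma), a call lost without scaling, with no filter and without any 1 of 6 arrays (all but the 6 h control arrays), and its part in the results below was not tested. The average differences of the 4 macrophage and leukocyte markers ran from -0.48 to 0.47, with a median of -0.087. In bulk RNA, a change in RNA per cell and a change in the share of cells that make it cannot be told apart.

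Levels are given as log2 of the background-subtracted signal minus the 75th percentile of that array, so 0 is the brightness below which 75% of spots lie; they compare arrays for 1 probe and never 1 gene with another. Egr2 stood at 0.68 and 0.71 on the 6 h KD arrays, against -1.43 and -1.34 on the 6 h control arrays. At 3 h it stood at 1.55 and 1.79 on the KD arrays, against 0.54 and 0.56 on the control arrays. Both KD arrays were above both control arrays at each time, with gaps several times wider than the distance between replicates. The mean difference, KD minus control, was 2.08 ± 0.093 (SE of the limma model, 2 arrays per group) at 6 h and 1.11 ± 0.093 at 3 h on the log2 scale, or 4.24-fold and 2.16-fold. Averaged over the times it was 1.60 ± 0.066, or 3.03-fold.

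Egr1, the founding member of the family and a zinc finger factor with nearly the same binding sequence, stood at 2.44 and 2.38 on the 6 h KD arrays, against 1.51 and 1.64 on the 6 h control arrays. The 3 h values were 2.89 and 2.83 on the KD arrays, against 2.40 and 2.26 on the control arrays. The arrays of the supernatants did not overlap at either time. With 2 arrays against 2, this also held for Nab1, which was not called. The share of all features without overlap is not given here. KD minus control was 0.84 ± 0.082 at 6 h (1.79-fold, adjusted p = 0.0131 by limma with Benjamini-Hochberg over all features) and 0.53 ± 0.082 at 3 h (1.44-fold, adjusted p = 0.0912). Egr1 was thus past the threshold of 0.05 at 6 h and not at 3 h; averaged over the times the difference was 0.68 ± 0.058 (adjusted p = 0.00708), a call lost without KD 3 h replicate 1 (0.0565 by limma). The 6 h call was lost without KD 3 h replicate 1 or 2 or without KD 6 h replicate 1. It was also lost with no scaling (adjusted p = 0.129 by limma), with no filter (0.108) and with only the 4 arrays compared. The average call was lost as well with no scaling (adjusted p = 0.0807 by limma) and with no filter (0.0656).

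Egr3, a family member induced by many of the same stimuli, was well above background on 0 of 8 arrays. Its probe read between -7.16 and -6.24, and it did not enter the filtered fit, so no fold is given. In the alternative with no filter on dim probes it was tested and not called. The probe of Egr4, the remaining Egr gene, was also above background on no array, with values between -7.36 and -6.39. Values at this level have no order, and say only that these transcripts were not detected by these probes.

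**Figure D1:**
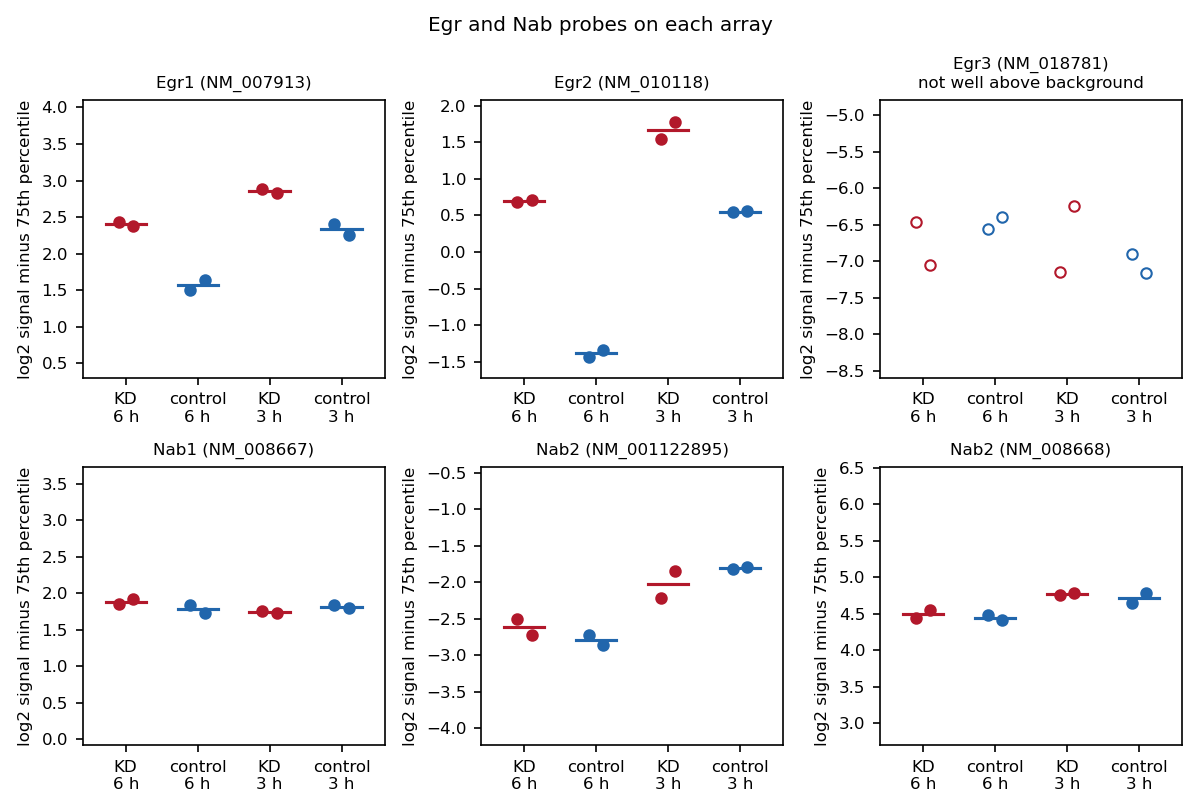
Level of each Egr and Nab probe on each array (log2 signal minus the 75th percentile of the array), in the order KD 6 h, control 6 h, KD 3 h and control 3 h; points are arrays, bars are means of 2 arrays, open points are not well above background, and each panel spans the same number of log2 units. The Egr1 and Egr2 points separate by supernatant at both times, with Egr2 at 0.68 and 0.71 (KD) above -1.43 and -1.34 (control) at 6 h, while the Nab1 points lie between 1.73 and 1.92.

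Nab1, a corepressor, stood at 1.85 and 1.92 on the 6 h KD arrays, against 1.84 and 1.74 on the 6 h control arrays. At 3 h it stood at 1.76 and 1.73 on the KD arrays, against 1.84 and 1.80 on the control arrays. The KD arrays were thus both higher at 6 h and both lower at 3 h, by amounts close to the distance between replicates. KD minus control was 0.095 (95% interval -0.073 to 0.26, adjusted p = 0.481 by limma) at 6 h and -0.075 (-0.24 to 0.093, adjusted p = 0.810) at 3 h, so neither passed.

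Nab2, the corepressor known to be switched on by Egr proteins, was read by 2 probes. The brighter probe, which represents the gene in the fit, stood at 4.44 and 4.56 on the 6 h KD arrays, against 4.48 and 4.42 on the 6 h control arrays. The 3 h values were 4.76 and 4.79 on the KD arrays, against 4.64 and 4.79 on the control arrays. The arrays of the supernatants overlapped at both times. KD minus control was 0.052 (95% interval -0.14 to 0.25, adjusted p = 0.747 by limma) at 6 h and 0.058 (-0.14 to 0.25, adjusted p = 0.900) at 3 h. On this probe the intervals leave room for a difference of up to 0.25 log2 units.

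The dimmer Nab2 probe, designed on another transcript of the gene, stood at -2.51 and -2.73 on the 6 h KD arrays, against -2.72 and -2.86 on the 6 h control arrays. At 3 h it stood at -2.21 and -1.85 on the KD arrays, against -1.81 and -1.80 on the control arrays. Fitted probe by probe, its KD minus control difference was 0.17 ± 0.14 at 6 h (95% interval -0.18 to 0.53, adjusted p = 0.538 by limma) and -0.22 ± 0.14 at 3 h (-0.58 to 0.13, adjusted p = 0.681), so neither Nab2 probe passed and this one leaves more room.

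Of the 4 measured family genes, 2 (Egr1 and Egr2) were higher at an adjusted p under 0.05 with KD supernatant at 6 h, where 1.53% of all 25797 features were called higher and 0.733% lower. Calls in either direction made up 2.26% of features. The balance of these calls rested on single arrays and on the scaling: the 394 higher and 189 lower became 377 and 496 without control 6 h replicate 1, 965 and 991 without control 6 h replicate 2, 927 and 109 with median scaling and 51 and 45 without scaling. At 3 h 1 gene (Egr2) was called higher, where 0.225% of all features were called higher, 0.0233% lower and 0.248% in either direction. For the average of both times 2 were called higher, where 2.1% of all features were called higher, 0.969% lower and 3.07% in either direction. As the family was chosen with these contrasts known, nothing is read from these counts. The median difference over all features was -0.0094 at 6 h and -0.018 at 3 h.

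**Figure D2:**
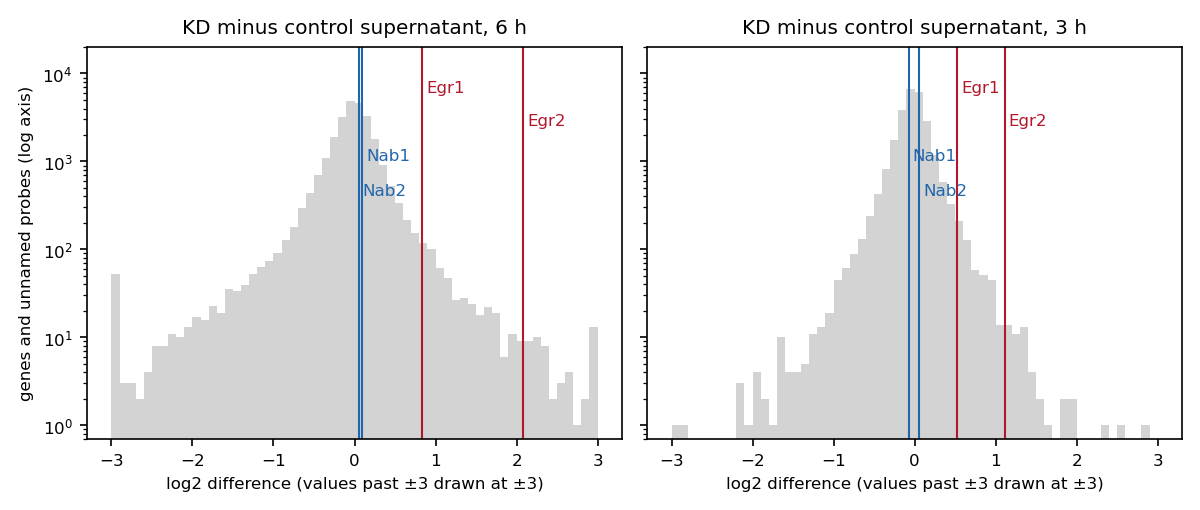
Number of genes and unnamed probes (log axis) by log2 difference, KD minus control supernatant, at 6 h (left) and 3 h (right), in bins of 0.1; vertical lines mark Egr1 and Egr2 in red and Nab1 and Nab2 in blue. The Egr2 line lies at 2.08 and 1.11 and the Egr1 line at 0.84 and 0.53, to the right of the bulk of features, and both Nab lines lie near 0.

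The supernatants were next compared in how the difference moved with time. For Egr2 the KD minus control difference was larger at 6 h than at 3 h by 0.97 ± 0.13 log2 units (95% interval 0.64 to 1.30), and for Egr1 by 0.31 ± 0.12. The Egr2 value is built from the differences by which the family was chosen and is a description, and that of Egr1 did not pass (adjusted p = 0.557 by limma). None of the 25797 features passed in this contrast by limma (0% called, with 2230 at an unadjusted p under 0.05), but 262 did without control 6 h replicate 1, 295 without control 6 h replicate 2 and 47 without KD 6 h replicate 2, none of them a family gene. For Nab2 the difference of effects was -0.0068 (adjusted p = 0.990 by limma).

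Egr2 fell between the times. The 6 h minus 3 h difference was -0.97 ± 0.093 with KD supernatant (1.96-fold lower, adjusted p = 0.000809 by limma) and -1.94 ± 0.093 with control supernatant (3.84-fold lower, adjusted p = 0.000128). These falls use the Egr2 arrays by which the family was chosen and are not independent of that choice. The gap between the falls is the difference of effects above, which is a description. Egr1 fell by 0.45 ± 0.082 with KD supernatant (1.37-fold lower, adjusted p = 0.00796) and by 0.76 ± 0.082 with control supernatant (1.69-fold lower, adjusted p = 0.00114). The Egr1 call with KD supernatant was lost without KD 3 h replicate 1 (adjusted p = 0.0532 by limma) and without scaling (-0.28, adjusted p = 0.347). For both genes the 6 h arrays lay below the 3 h arrays of the same supernatant with no overlap. Nab1, which was not called, also showed no overlap between the times with KD supernatant, so this adds little to the calls.

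Nab2 fell too, by the small amounts of 0.27 ± 0.079 in each supernatant (adjusted p = 0.0390 with KD and 0.0424 with control by limma). These calls sat close to the threshold: with KD supernatant the call was lost without any 1 of the 4 KD arrays, and with control supernatant without any 1 of the 8 arrays. Neither call held without scaling, with quantile normalization or with no filter on dim probes, and the control call was also lost with array weights, with only the 4 arrays compared and with bright patches set to missing; the sign stayed the same. The dimmer Nab2 probe moved the same way by more, with 6 h minus 3 h differences of -0.59 ± 0.14 with KD (adjusted p = 0.0213, limma fit by probe) and -0.98 ± 0.14 with control supernatant (adjusted p = 0.00312), so the probes differ in size and not in direction. Nab1 differed by 0.14 with KD supernatant (adjusted p = 0.152) and by -0.028 with control supernatant (adjusted p = 0.785), and did not pass.

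The share of the array that moved with time was large. With KD supernatant 22.6% of all features were called lower at 6 h and 17.5% higher (40.1% in all), and with control supernatant 23.4% lower and 16.3% higher (39.8% in all). These splits moved with the scaling: with KD supernatant the 4525 higher and 5823 lower became 3684 and 1814 without scaling and 3493 and 7073 with median scaling, and with control supernatant the 4216 and 6039 became 2869 and 2870 without scaling and 2706 and 9468 with median scaling. Against this, 3 of the 4 measured family genes (Egr1, Egr2 and Nab2) were called lower in each. The KD and control time courses were tested on the same slide, and each shares its arrays with the supernatant contrasts above, by which Egr2 was chosen. The median 6 h minus 3 h difference over all features was -0.11 with KD and -0.071 with control supernatant. Counted from the lowest of the 25797 features, Egr1 ranked 5234 with KD and 2654 with control supernatant. Egr2 ranked 1350 and 177, and Nab2 8561 and 8134.

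**Figure D3:**
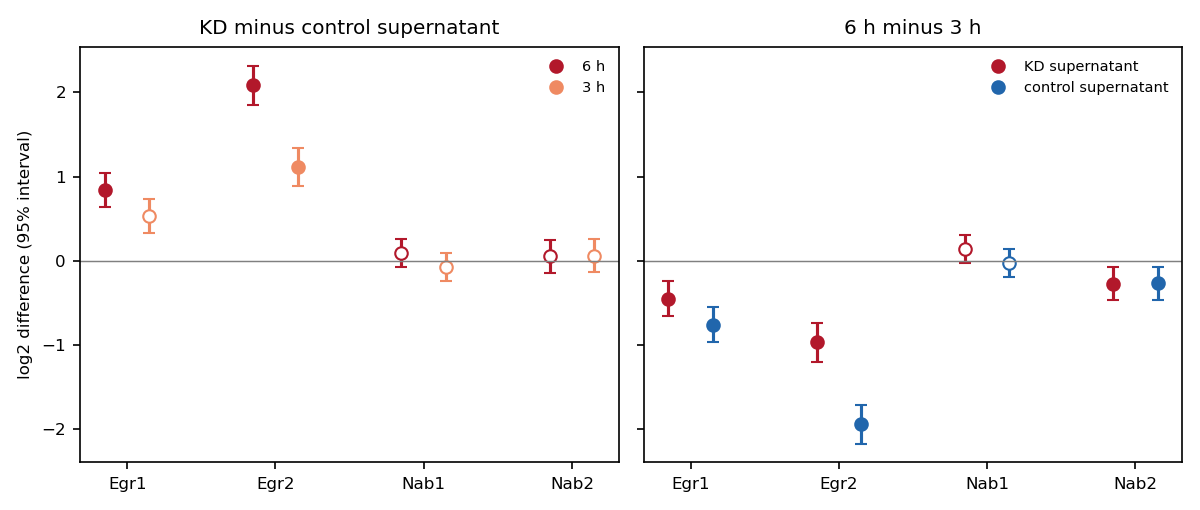
Log2 differences of the 4 measured Egr and Nab genes with 95% intervals of the limma model, KD minus control supernatant at 6 h and 3 h (left) and 6 h minus 3 h with KD and control supernatant (right). Filled points passed an adjusted p of 0.05. The filled Egr2 points on the left are a description, and so is the gap between the Egr2 points on the right. Egr2 lies at 2.08 and 1.11 on the left and at -0.97 and -1.94 on the right, while the Nab1 intervals all include 0.

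The order of the group means was the same for Egr1 and Egr2: KD 3 h, then KD 6 h, then control 3 h, then control 6 h. The middle neighbours did not differ beyond their spread. KD 6 h minus control 3 h was 0.14 (95% interval -0.087 to 0.37) for Egr2 and 0.078 (-0.13 to 0.28) for Egr1, so the 6 h level with KD supernatant and the 3 h level with control supernatant could not be separated. The outer neighbours were apart: KD 3 h minus KD 6 h was 0.97 (0.74 to 1.20) for Egr2 and 0.45 (0.25 to 0.65) for Egr1, and control 3 h minus control 6 h was 1.94 (1.71 to 2.17) and 0.76 (0.56 to 0.96) for the same genes. These intervals are not adjusted for the number of genes. For Nab1 no neighbouring groups differed beyond their interval. For Nab2 the means ran KD 3 h, control 3 h, KD 6 h and control 6 h, and of the neighbours only KD 6 h and control 3 h were apart, at -0.22 (-0.41 to -0.019).

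The regulators through which the Egr genes are usually switched on were examined as a list of 22 genes of the ERK pathway, serum response factor and its partners, all of them tested. By limma with Benjamini-Hochberg adjustment 0 were called between supernatants at 6 h, at 3 h or on average. At an unadjusted p under 0.05 there were 7 at 6 h (6 of them higher with KD supernatant), 0 at 3 h and 5 on average, all 5 higher; over all features this share was 19.0% at 6 h, 10.6% at 3 h and 19.7% on average. Without control 6 h replicate 2, 3 were called at 6 h and 2 on average, and without KD 6 h replicate 1, 1 was called on average. The median KD minus control difference of the list was 0.053 at 6 h and 0.0041 at 3 h. Srf, the factor that binds the CArG box, differed by 0.18 ± 0.058 at 6 h (adjusted p = 0.194) and by 0.10 ± 0.058 at 3 h (0.640). Larger 6 h values that did not pass were 0.60 ± 0.13 for Creb1, the factor that binds the cyclic AMP element (adjusted p = 0.0896), 0.50 ± 0.14 for Rps6ka2, a kinase downstream of ERK (0.142), and 0.28 ± 0.096 for Map2k1, the kinase MEK1 that activates ERK (0.203). These are transcript levels, and the activity of the kinases was not measured.

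With time, 5 genes of this list were called lower and 4 higher at 6 h than at 3 h with KD supernatant, and 9 lower and 1 higher with control supernatant. With KD supernatant these shares of the 22 are close to the 22.6% lower and 17.5% higher over all features; with control supernatant those were 23.4% and 16.3%. Srf was 1.53 log2 units lower with KD supernatant (6 h minus 3 h -1.53 ± 0.058, adjusted p = 0.000112 by limma) and 1.61 lower with control supernatant (-1.61 ± 0.058, adjusted p = 0.000102). Creb1 was called lower with control supernatant (-0.82 ± 0.13, adjusted p = 0.00438), while with KD supernatant it differed by -0.36 (adjusted p = 0.0767).

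Wt1, a zinc finger factor whose DNA binding domain resembles that of the Egr proteins, stood at -0.092 and 0.070 on the 6 h KD arrays, against -0.51 and -0.61 on the 6 h control arrays. The 3 h values were -1.47 and -1.41 on the KD arrays, against -2.50 and -2.45 on the control arrays. KD minus control was 0.55 ± 0.080 at 6 h (adjusted p = 0.0343 by limma) and 1.04 ± 0.080 at 3 h (adjusted p = 0.0224), both calls that were lost without any 1 of 6 of the 8 arrays. They were also lost with no scaling, no filter, only the 4 arrays compared and the replicate block. Median scaling lost the 3 h call, and array weights the 6 h call. Wt1 moved with time in the direction opposite to Egr1 and Egr2, being 1.43 log2 units higher at 6 h than at 3 h with KD and 1.92 higher with control supernatant.

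A list of 32 genes reported as Egr targets, most of them from work on Egr1, was read beside the family, and 27 were tested; Icam1, Hpse, Fasl and Tnf were among those above background on no array. At 6 h 6 of the 27 were called higher with KD supernatant and 0 lower, where 1.53% of all features were called higher. They included Plaur, the urokinase receptor, Thbs1, a matrix glycoprotein, the growth factor genes Pdgfa and Pdgfb, and Cd44, a hyaluronan receptor. The Pdgfa and Cd44 calls were lost with no scaling, no filter, only the 4 arrays compared and the replicate block, and Cd44 also with array weights. Both were lost without any 1 of the 3 h arrays or the 6 h KD arrays, and Cd44 also without control 6 h replicate 1. The median KD minus control difference of the list was 0.19 at 6 h and 0.18 at 3 h, beside medians near 0 over all features. The list was drawn up with earlier results of these arrays known, so this describes it and does not set it apart.

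Plaur stood at 2.15 and 2.31 on the 6 h KD arrays, against 0.89 and 1.01 on the 6 h control arrays, a difference of 1.28 ± 0.086 (2.42-fold, adjusted p = 0.00656 by limma). Thbs1 stood at 4.62 and 4.76 on the 6 h KD arrays, against 3.66 and 3.76 on the 6 h control arrays, a difference of 0.98 ± 0.079 (1.97-fold, adjusted p = 0.00850). The arrays of the supernatants did not overlap for these genes, as they did not for Nab1, which was not called. Both 6 h calls were lost with no scaling, with no filter and with only the 4 arrays compared. At 3 h the same genes differed by 0.58 (Plaur) and 0.70 (Thbs1) log2 units, which did not pass (adjusted p = 0.0832 and 0.0532 by limma).

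Pdgfb was the 1 target gene called at 3 h, at 1.94 and 1.99 on the KD arrays against 1.03 and 0.94 on the control arrays, a difference of 0.98 ± 0.087 (adjusted p = 0.0325 by limma). At 6 h it differed by 0.73 ± 0.087 (adjusted p = 0.0219). Both Pdgfb calls were lost when the mean of a gene's probes replaced the brightest probe. They were also lost with no scaling, no filter, only the 4 arrays compared and the replicate block. Median scaling lost the 3 h call, and array weights the 6 h call. The 6 h call was lost as well without any 1 of the 3 h arrays or without KD 6 h replicate 2. Averaged over both times 8 of the 27 were called higher and 0 lower, where 2.1% of all features were called higher and 0.969% lower, among them also Vcam1 (0.26) and Vegfa (0.39). The Vcam1 and Vegfa average calls were lost with no scaling, no filter and the replicate block, and Vcam1 also with the mean of its probes. Both were lost without any 1 of 6 arrays (all but the 6 h control arrays). The 3 h call was lost without any 1 of the 8 arrays, and the 6 h count was 3 without any 1 of 6 arrays (all but control 6 h replicates 1 and 2), 5 without control 6 h replicate 1 and 7 without control 6 h replicate 2; Plaur and Thbs1 were called in each case. The average count was 4 without KD 3 h replicate 1, 5 without any 1 of the other 3 KD arrays or the 3 h control arrays, 7 without control 6 h replicate 1 and 9 without control 6 h replicate 2.

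**Figure D4:**
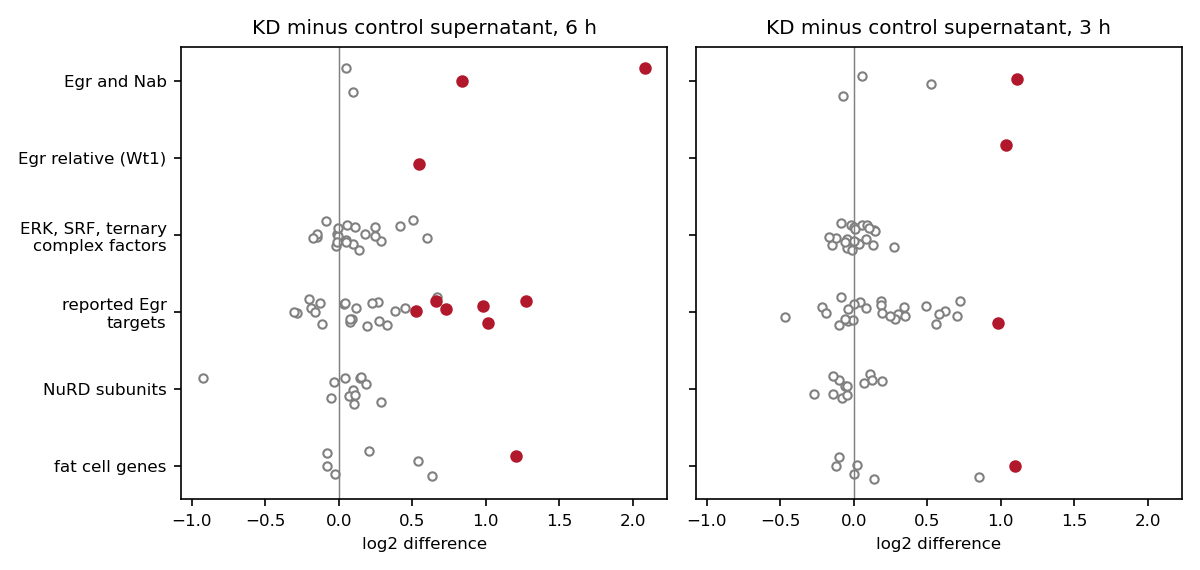
Log2 difference, KD minus control supernatant, of every tested gene at 6 h (left) and 3 h (right), by list; filled red points passed an adjusted p of 0.05, open points did not, and the vertical position within a list carries no value. At 6 h the filled points are Egr1 and Egr2, Wt1, 6 of 27 reported Egr targets and 1 of 7 fat cell genes, with none among the 22 upstream regulators or the 12 NuRD subunits.

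Nab2 is known to recruit the NuRD chromatin complex through its subunit Chd4. Of 13 NuRD subunit genes 12 were tested, and Chd3 was not analysed here. By limma 0 of the 12 were called between supernatants at 6 h, at 3 h or on average, where 2.26%, 0.248% and 3.07% of all features were. At an unadjusted p under 0.05 there were 0, 1 and 1 in these comparisons, against 19.0%, 10.6% and 19.7% of all features. Without control 6 h replicate 2, 2 were called at 6 h and 1 on average. Chd4 itself differed by -0.054 ± 0.074 at 6 h and -0.081 ± 0.074 at 3 h. The subunit genes with the smallest p for the average were Mta2 (0.19), Rbbp7 (0.091), Mbd3 and Mbd2 (0.10), and none passed. Over the 12 genes the differences ran from -0.92 to 0.29 at 6 h, from -0.27 to 0.19 at 3 h and from -0.53 to 0.19 on average. With time Mta2 was called lower, by -0.99 ± 0.086 with KD and -0.98 ± 0.086 with control supernatant (adjusted p = 0.000592 and 0.000562 by limma).

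In fat cell formation Egr2 is known to act upstream of Cebpb, and 7 fat cell genes of this kind were tested. Cebpd, an early adipogenic and acute phase factor, stood at 6.07 on both 6 h KD arrays, against 4.77 and 4.95 on the 6 h control arrays. At 3 h it stood at 6.25 and 6.20 on the KD arrays, against 5.19 and 5.07 on the control arrays. KD minus control was 1.21 ± 0.085 at 6 h (adjusted p = 0.00741 by limma) and 1.10 ± 0.085 at 3 h (0.0224). Cebpd was the 1 gene of 7 called at either time, where 2.26% of all features were called at 6 h and 0.248% at 3 h. Its 3 h call was lost without any 1 of 6 of the 8 arrays, and its 6 h call held without each. Both calls were lost with no scaling, with no filter and with only the 4 arrays compared, and the 3 h call also with the replicate block.

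Cebpb differed by 0.54 ± 0.15 at 6 h and 0.13 ± 0.15 at 3 h and did not pass (adjusted p = 0.153 and 0.862 by limma). Klf5, a zinc finger factor of early fat cell formation, differed by 0.63 at 6 h and 0.85 at 3 h, passing for the average alone (0.74 ± 0.094, adjusted p = 0.0189 by limma), a call lost without any 1 of the 3 h arrays. That call was also lost with no scaling and with no filter. Pparg, the central fat cell receptor, differed by -0.078 ± 0.058 at 6 h and -0.098 ± 0.058 at 3 h (adjusted p = 0.495 and 0.652), so no change was called.

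The genes with the pattern most like each family gene were found among 12565 named genes above background on all 8 arrays, each centred on its own mean and compared by the root mean square difference over the 8 arrays. For Egr2, whose own values had a root mean square of 1.11 log2 units around their mean, the nearest were Il4ra, an interleukin-4 receptor chain (0.259), Dusp6, an ERK phosphatase (0.275), and Nr4a1, an orphan nuclear receptor of the immediate early class (0.328). For Egr1, with 0.465 around its mean, they were Sh2b2 (0.107), Il18rap (0.111) and Prkg2 (0.112). Nab1 and Nab2 varied little, with 0.0618 and 0.146 around their means, and so lay close to many genes. Nearest to Nab1 were Arglu1 (0.0238), Smarca4 (0.0284) and Echdc2 (0.0291). Nearest to Nab2 were Zfp335 (0.0334), Irf2bp1 (0.0340) and Supt16 (0.0380). The 8 arrays come from 4 groups, and genes that share only these groups' means can score as alike.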

How the data were processed

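Total RNA of 3T3-L1 cells was read on 8 one-colour arrays, 2 in each of 4 groups taken from the labels. The authors' deposited scanner files hold a processed signal for every spot, a linear intensity with background subtracted and no scaling from array to array, per the file headers. The scanner software was Agilent Feature Extraction 10.7.3.1 according to the submitters' processing notes. The authors also deposited a table of log2 values, used as an alternative. Each of its columns was the log2 processed signal less 1 constant (correlation 1.00, medians -4.24 to -3.96), with no centring by gene. Depth is not defined for arrays, and their number limits the precision. Of 59305 non-control spots per array 0 were saturated, 50.7% to 55.9% were well above background, and 163 to 319 outlier spots were left out. No spot of an Egr or Nab probe was an outlier or lay in a bright patch.

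The 75th percentile of an array's log2 processed signals was taken from each of them, and repeat spots of a probe were averaged. Probes were kept if both arrays of any group were well above background, the brightest probe represented a gene, and names came from RefSeq (27235 probes by transcript, 20 by symbol or synonym, 28426 unnamed). Means of the 4 groups were fitted over all features in limma 3.58.1 (lmFit, eBayes; R 4.3.3), where 4 degrees of freedom were residual and 1.74 prior, with Benjamini-Hochberg adjustment, and the fit was tested on simulated data. The threshold was an adjusted p of 0.05.

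The family, the gene lists, the tests and the rule for named genes were chosen with earlier results of these data known. The rule named all family genes and Egr relatives, up to 4 genes per list with the smallest p for the supernatant average, and the 3 most alike genes for each family gene. Some genes of the target list that the rule or a count covers are not reported here by name. Beyond the rule, other called targets, Chd4 and markers were named after their values were seen. Alternatives covered scaling, background, filter, probe rule, spread, arrays and pairing.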

Additional observations from a re-analysis of the deposited data

Results flagged for a closer look

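The KD minus control difference of Nab1 took opposite directions at the times: both 6 h KD arrays (1.85 and 1.92) lay above both 6 h control arrays (1.84 and 1.74), while both 3 h KD arrays (1.76 and 1.73) lay below both 3 h control arrays (1.84 and 1.80). The difference of the effects, 6 h minus 3 h, was 0.17 ± 0.096 log2 units and did not pass (adjusted p = 0.664 by limma).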

How the results depend on the processing

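The 14 alternatives and the 8 fits that each left out 1 array gave no family gene a called difference of opposite sign. At 3 h the 1 gene called, Egr2, was joined by Egr1 (2 called) with the filter for all 8 arrays, with array weights and with an eBayes trend; 0 were called with median scaling, no scaling, no filter, only the 4 arrays compared, the replicate block, or without any 1 array (0 to 0). At 6 h the 2 called became 1 with no scaling and with no filter, 0 with only the 4 arrays compared, and 1 to 2 without 1 array. For the average the 2 called became 1 with no scaling and with no filter, and 1 to 2 without 1 array. For 6 h minus 3 h with KD supernatant the 3 called became 1 with no scaling, 2 with no filter, and 1 to 3 without 1 array; with quantile normalization they were Egr1, Egr2 and Nab1, which was higher (0.21, adjusted p = 0.0456 by limma), and not Nab2. With control supernatant 2 were called, without Nab2, under no scaling, quantile normalization, no filter, array weights, only the 4 arrays compared and bright patches set to missing, and without any 1 array (2 to 2). The cause of these losses was not tested, though some of these fits held fewer arrays or more features. Because the family was chosen by the Egr2 differences between supernatants, the Egr2 calls in these supernatant counts are a description with no test. The 3 h Egr2 difference ran from 0.99 to 1.23 without 1 array. Same-numbered arrays did not deviate together over all features (correlations of -0.047 to 0.087). This cannot show whether they shared a batch of supernatant, which the labels do not state. Beyond the 3 h Egr2 call, the replicate block changed no call of a family gene. Over all features the count called under the alternatives ranged from 0 to 308 at 3 h (64 reported), 0 to 1134 at 6 h (583), 74 to 1427 on average (793) and 0 to 11 for the difference of effects (0). Without 1 array it ranged from 0 to 36 at 3 h, 135 to 1956 at 6 h, up to 1992 on average and 0 to 295 for the difference; the highest at 6 h, on average and for the difference came without control 6 h replicate 2. On average the 543 higher and 250 lower became 1107 and 115 with median scaling, 597 and 581 without control 6 h replicate 1 and 982 and 1010 without control 6 h replicate 2. Median scaling moved the median of all features at 6 h to 0.18. The 3 h count of reported Egr targets ranged from 0 to 8 and the 6 h count from 0 to 11. Egr3 lay at the background, where these arrays give no difference. The fit with no filter tested 5 family genes, Egr3 among them, and did not call Egr3.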
